A study of Homo sapiens with 18 samples.

Results

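The 8 subunits of the cytosolic chaperonin TRiC, also called CCT, were followed through ribosome footprints and mRNA of a human cell line in which a gene of the UFM1 pathway had been knocked out. They were chosen by a list of Ensembl transcripts, 1 for each subunit, a rule that names no measured value. All 8 of the 8 listed transcripts were found among the 26679 entries of the footprint tables and the 98334 entries of the mRNA tables, and the listed length of each matched the length in the files after a trim of 20 codons in the footprint tables and 19 in the mRNA tables.

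HEK293 is a human embryonic kidney line. UFM1-KO and UFSP2-KO are lines derived from it with Cas9 and a guide against UFM1 or UFSP2, and WT is the line without a knockout. Each knockout was 1 clone, so a knockout cannot be told apart from the clone that carries it. All lines were grown in DMEM with 10% serum. For each line there were 2 libraries, a and b, of membrane footprints, of cytosol footprints and of whole-cell mRNA, 18 libraries in 9 groups. The cytosol is what digitonin released, and the membrane fraction is what Triton X-100 then released from the remaining pellet, per the labels' protocols. Nothing in the labels says that libraries a and b came from separate cultures, so p-values measure only the spread between these libraries, which may be technical. Footprint libraries held 1393032 to 11388755 counts and mRNA libraries 37451244 to 68675420. No table at hand ties other transcript IDs to gene names, so neither the loss of UFM1 and UFSP2, nor markers of the 2 fractions, nor markers of the cell line were checked in these counts.

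TRiC folds newly made proteins of the cytosol, with actin and the tubulins as the best known. It is built from a pair of stacked rings, and each ring holds 1 copy of every subunit, so the assembled complex needs its subunits in equal amounts. The subunits are separate genes with related sequences, and they bind and hydrolyse ATP to open and close the chamber in which a client folds. UFM1 is a small ubiquitin-like protein that is joined to other proteins, among them the ribosomal protein RPL26 on ribosomes at the endoplasmic reticulum, and UFSP2 is a protease that takes it off again. TRiC subunits have no signal sequence and are made on ribosomes that are free in the cytosol.

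The members are TCP1 (ENST00000321394, the alpha subunit, chr6:159778498-159789602), CCT2 (ENST00000299300, beta, chr12:69585459-69601570), CCT3 (ENST00000295688, gamma, chr1:156308968-156338292) and CCT4 (ENST00000394440, delta, chr2:61868085-61888671). The others are CCT5 (ENST00000280326, epsilon, chr5:10249921-10266412), CCT6A (ENST00000275603, zeta, chr7:56051765-56063989), CCT7 (ENST00000258091, eta, chr2:73234308-73253005) and CCT8 (ENST00000286788, theta, chr21:29056326-29073648). Coordinates are those of the genes in RefSeq on GRCh38.p14, and the footprint and mRNA values are counts per transcript, listed with its coding length in codons. RefSeq lists pseudogenes for 7 of the 8, from 1 each for CCT3 and CCT8 to 5 for CCT6A, and none for CCT2. How reads shared with such copies were counted is not given in the sources used here, so the levels of the 7 carry that uncertainty.

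The stretch of 250 bases before the annotated start of the gene is shown for 4 subunits because the results turn on them: CCT8, whose footprints stood apart in WT, CCT4 and CCT7, the pair that differed between the knockouts, and TCP1, which had the fewest footprints for its mRNA. The windows are chr21:29073649-29073898 on the minus strand, chr2:61888672-61888921 on the minus strand, chr2:73234058-73234307 on the plus strand and chr6:159789603-159789852 on the minus strand, read 5′ to 3′ from RefSeq on GRCh38.p14. Capitals mark matches, on either strand, to the motifs named after the sequences.
CCT8: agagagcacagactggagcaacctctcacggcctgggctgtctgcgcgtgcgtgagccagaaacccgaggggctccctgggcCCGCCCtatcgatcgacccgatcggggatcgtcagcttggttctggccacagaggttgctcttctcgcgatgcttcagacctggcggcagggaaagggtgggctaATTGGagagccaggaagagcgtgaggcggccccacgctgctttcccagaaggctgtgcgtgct
CCT4: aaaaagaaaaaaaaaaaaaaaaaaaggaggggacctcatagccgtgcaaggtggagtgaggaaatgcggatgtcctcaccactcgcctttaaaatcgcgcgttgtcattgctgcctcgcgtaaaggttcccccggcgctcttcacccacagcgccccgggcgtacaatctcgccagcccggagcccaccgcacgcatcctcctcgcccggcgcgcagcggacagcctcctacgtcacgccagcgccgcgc
CCT7: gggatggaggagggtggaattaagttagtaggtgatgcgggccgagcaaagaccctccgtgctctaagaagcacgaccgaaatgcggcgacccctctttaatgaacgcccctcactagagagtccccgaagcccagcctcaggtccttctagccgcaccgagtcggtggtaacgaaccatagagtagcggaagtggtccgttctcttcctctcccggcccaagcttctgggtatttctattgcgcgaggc
TCP1: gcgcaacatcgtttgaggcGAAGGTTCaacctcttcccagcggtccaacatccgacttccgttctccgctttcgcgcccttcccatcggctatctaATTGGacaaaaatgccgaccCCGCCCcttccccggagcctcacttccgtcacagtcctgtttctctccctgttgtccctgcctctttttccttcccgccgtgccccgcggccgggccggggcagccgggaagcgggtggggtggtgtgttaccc

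The capitals in CCT8 and TCP1 are a GC box (GGGCGG, read on the other strand as CCGCCC) and a CCAAT box (CCAAT, read on the other strand as ATTGG) in each. TCP1 also holds the paired half-sites of a heat shock element (GAANNTTC), at position -231 from the start. CCT4 and CCT7 hold no match to any motif searched, which also included the ETS core (CCGGAAG) and the TATA box (TATAAA). At least 1 window was found for 7 of the 8 subunits, 9 windows in all because CCT2 and CCT4 have 2 each, and CCT6A had none. Across the 7, the GC box and the CCAAT box were each found for 4 (CCT2, CCT3, CCT8 and TCP1), the heat shock pair for 2 (CCT2 and TCP1), the ETS core for 1 (CCT2) and the TATA box for 0. The heat shock pair of CCT2 is in the second of its windows, which starts inside the gene, and not in the window that ends at the start of the gene. The only window of CCT5, which held no match, also lies inside the gene, so the bases before that gene were not searched. A subunit with 2 windows has more letters to match than the single windows behind the shares that follow. Among all 35116 windows of the same length, the GC box is in 42.6%, the CCAAT box in 32%, the TATA box in 10.7%, the ETS core in 8.52% and the heat shock pair in 5.78%. A match is a description of letters and not a site in use, and no match says only that these letters are absent from this window.

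All 8 subunits had high levels of footprints and of mRNA in every group. By group mean per codon, their percentile among all tested features was 93.6 to 97.6 for footprints and 94.8 to 98.2 for mRNA. Each had 468 to 8888 raw counts in a footprint library and 5882 to 26689 in an mRNA library. Shares are of the counts of the tested features, left after merging and filtering, and not of the library totals given above. The tested features of footprints and of mRNA are unlike sets, so shares are not compared between the assays. In the membrane fraction the 8 together took 0.559% ± 0.0152 of these counts in UFM1-KO, 0.67% ± 0.0719 in UFSP2-KO and 0.655% ± 0.0816 in WT (SD, n = 2 each). In the cytosol their share was 0.679% ± 0.0581 in UFM1-KO, 0.708% ± 0.0937 in UFSP2-KO and 0.67% ± 0.0768 in WT. In mRNA it was 0.515% ± 0.0145 in UFM1-KO, 0.591% ± 0.0357 in UFSP2-KO and 0.495% ± 0.0799 in WT. WT mRNA library b stood apart from the others here, with 0.438% (exact binomial 95% interval 0.436 to 0.441, counting error only) against 0.551% (0.548 to 0.555) in WT mRNA library a. These are bulk libraries, in which fewer cells making a protein and less RNA per cell cannot be told apart.

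Per codon, the footprint levels of the subunits were not equal, and rates of synthesis were not measured. Levels are given as CPM, edgeR's scaled counts with TMM factors, per 1000 codons of the transcript. The order of the footprint levels differed by line. Averaged over the 4 footprint libraries of a line, CCT3 was highest in UFM1-KO at 2076, ranked 4 of 8 in UFSP2-KO at 1679 and was highest in WT at 2148. CCT7 had 1818 in UFM1-KO, 2731 in UFSP2-KO, the highest there, and 2091 in WT. CCT5 had 1859 in UFM1-KO, 2483 in UFSP2-KO and 2017 in WT. CCT3 lay above CCT5 in 4 of 4 UFM1-KO libraries, 0 of 4 UFSP2-KO libraries and 4 of 4 WT libraries. CCT2 was above CCT4 in 4 of 4 libraries of UFM1-KO, 1 of 4 of UFSP2-KO and 4 of 4 of WT, and CCT4 was above CCT8 in 4 of 4 libraries of either knockout but in 1 of 4 of WT. CCT3 was above CCT2 in 12 of 12 libraries. TCP1 and CCT6A changed places within every line, with TCP1 higher in 2 of 4 libraries of UFM1-KO, 3 of 4 of UFSP2-KO and 2 of 4 of WT. Over all 12 libraries CCT6A averaged 1037, TCP1 1068 and CCT8 1175, the low end of the 8. Within a library the highest subunit was 2.03 to 2.93 times the lowest, and the coefficient of variation over the 8 subunits was 28.4% to 39.2% in the membrane fraction and 26.7% to 38.4% in the cytosol. By line, it was 33.7% to 36.1% in UFM1-KO membrane, 36.2% to 39.2% in UFSP2-KO membrane and 28.4% to 30.5% in WT membrane, so the subunits were least unequal in WT, a description with no test. In the cytosol it was 29.4% to 35.5% in UFM1-KO, 35.7% to 38.4% in UFSP2-KO and 26.7% to 30.1% in WT, where the UFM1-KO and WT libraries overlapped.

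**Figure D1:**
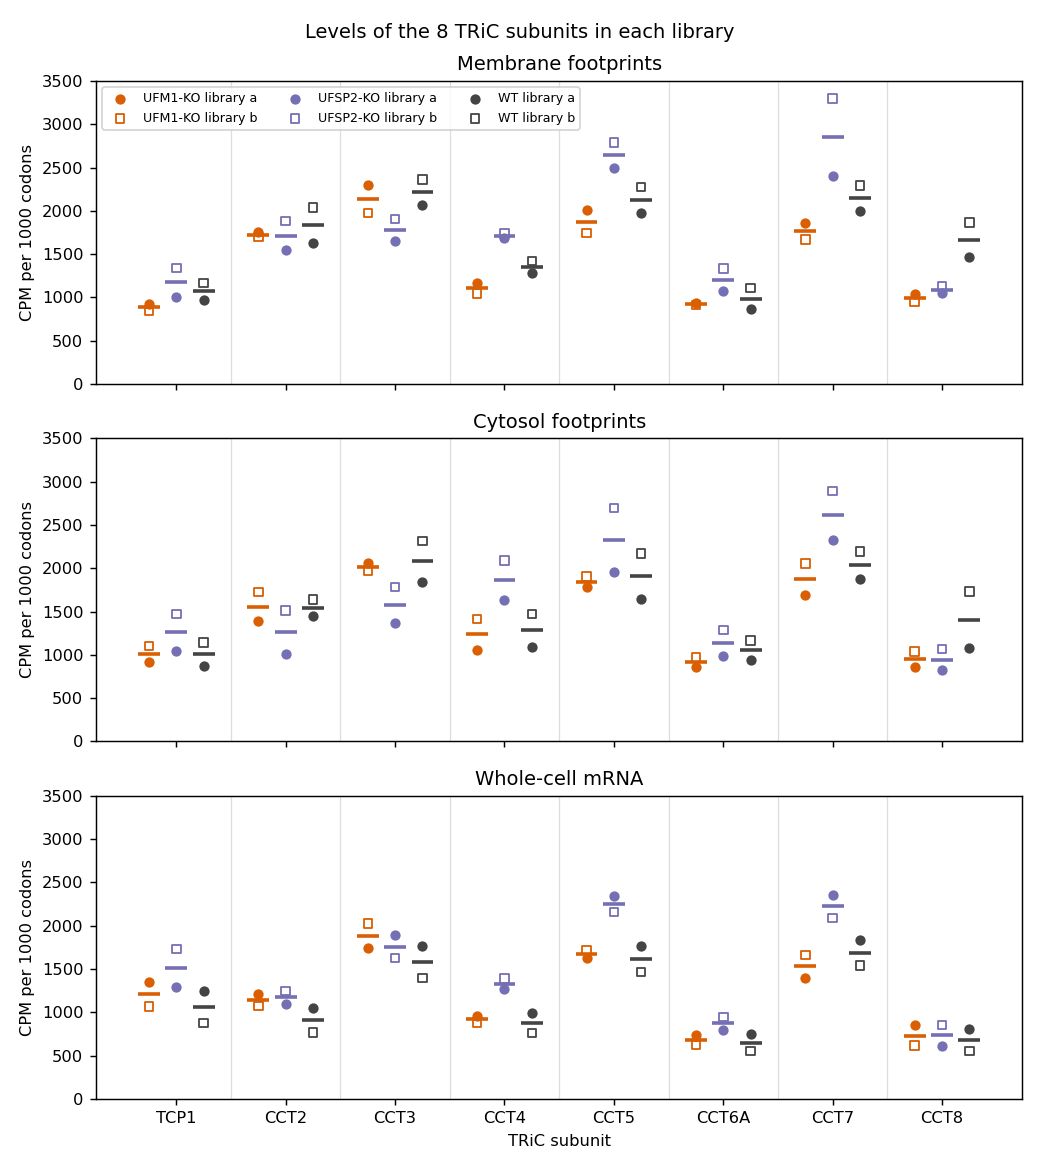
Level of each TRiC subunit in every library, as CPM per 1000 codons on a linear axis from 0, for membrane footprints, cytosol footprints and mRNA. Filled circles are library a, open squares library b and bars their mean. CCT5 and CCT7 lie high in all panels, and so does CCT3 except in the footprints of UFSP2-KO. CCT8 lies higher in WT than in either knockout in both footprint panels but not in mRNA.

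The mRNA levels gave a similar order except for TCP1, the subunit that gave the complex its name. Over the 6 mRNA libraries CCT5 averaged 1846 CPM per 1000 codons, CCT7 1813, CCT3 1742, TCP1 1259, CCT2 1075, CCT4 1041, CCT6A 731 and CCT8 714. TCP1 ranked between 3 and 5 of 8 in the mRNA libraries but between 5 and 8 of 8 in the footprint libraries. CCT4 was above CCT6A in 6 of 6 mRNA libraries. The other neighbours changed places in at least 1 library: CCT5 stood above CCT7 in 3 of 6, CCT7 above CCT3 in 4, CCT3 above TCP1 and TCP1 above CCT2 in 5 each, CCT2 above CCT4 in 4 and CCT6A above CCT8 in 4. Across the 8 subunits, Pearson's r between membrane and cytosol log2 levels was 0.976 in UFM1-KO, 0.937 in UFSP2-KO and 0.971 in WT. Between footprints and mRNA it ranged over the lines and fractions from 0.713 (membrane, WT) to 0.899 (cytosol, UFM1-KO). These are descriptions over 8 genes that share their libraries, not tests.

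Set against mRNA, TCP1 had the fewest footprints of the 8 in every line and fraction. The ratio is the log2 footprint level less the log2 mRNA level, and since the assays were scaled separately its zero has no meaning of its own and subunits can be compared within it. For TCP1 the ratio in the membrane fraction was -0.43 ± 0.26 in UFM1-KO, -0.36 ± 0.42 in UFSP2-KO and 0.03 ± 0.41 in WT (SD combined over both assays, n = 2 each). In the cytosol it was -0.25 ± 0.31 in UFM1-KO, -0.27 ± 0.46 in UFSP2-KO and -0.07 ± 0.45 in WT. CCT2 and CCT8 lay at the high end of the WT values. CCT8 had 0.47 ± 0.34 in UFM1-KO membrane, 0.59 ± 0.35 in UFSP2-KO membrane and 1.31 ± 0.46 in WT membrane, the last being the highest ratio of any subunit in any line and fraction. CCT2 had 0.60 ± 0.13 in UFM1-KO, 0.54 ± 0.24 in UFSP2-KO and 1.02 ± 0.40 in WT membrane. The WT ratios rest in part on WT mRNA library b, in which all 8 subunits were low.

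**Figure D2:**
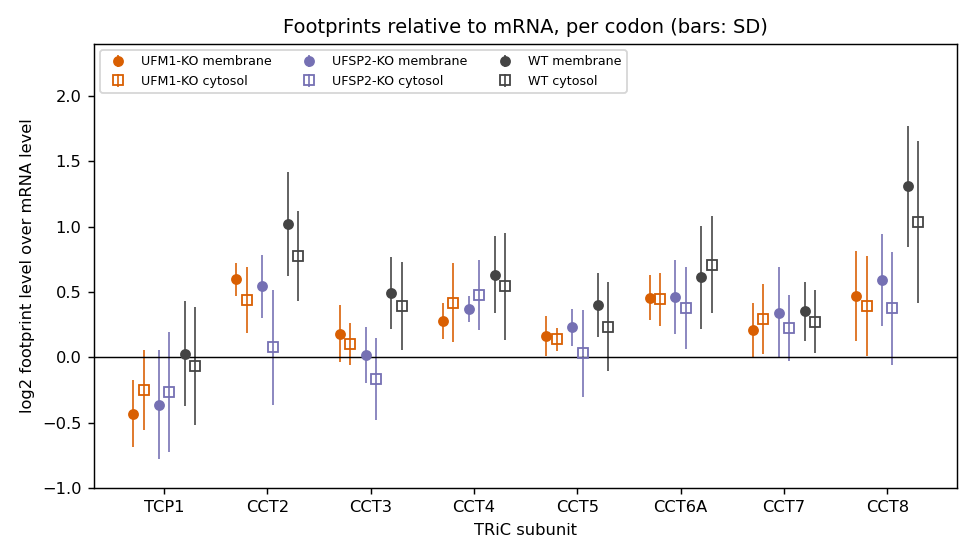
Log2 footprint level less log2 mRNA level of each subunit, both per codon, for membrane (filled) and cytosol (open) footprints of each line. Bars are the SD combined over both assays, 2 libraries each. TCP1 is lowest in every line and fraction, and the WT values of CCT2 and CCT8 are at the top.

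The first comparison asked how footprints divided between the fractions. TRiC footprints were neither enriched nor depleted at the membrane to an extent that this design could call. With p-values of edgeR's quasi-likelihood test adjusted after Benjamini and Hochberg over all features and a threshold of 0.05, 0 of 8 subunits were called in UFM1-KO, 0 of 8 in UFSP2-KO and 0 of 8 in WT. Of all 11065 features, 28.9% were called in UFM1-KO, 36.9% in UFSP2-KO and 37.5% in WT. The median log2 membrane over cytosol of the 8 subunits was 0.02 in UFM1-KO, 0.15 in UFSP2-KO and 0.09 in WT, while the median over all features was 0.02, 0.01 and -0.02 in the same order. Sign aside, the median size of the log2 ratio was 0.08 for the subunits in UFM1-KO, 0.15 for them in UFSP2-KO and 0.09 in WT. For all features it was 0.46, 0.61 and 0.57 in the same order of lines. At an unadjusted p under 0.05, 0 subunits passed in UFM1-KO, 1 in UFSP2-KO and 0 in WT, and DESeq2 called 0 in each line.

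CCT2, one of the subunits through which the rings of the complex touch, was that single case. It had 795 and 969 CPM in UFSP2-KO membrane, against 517 and 779.5 CPM in UFSP2-KO cytosol. Both membrane libraries lay above both cytosol libraries, with a log2 difference of 0.44 (SE 0.21, edgeR adjusted p = 0.106) and a 95% interval of 0.01 to 0.87. In UFM1-KO the same gene had 902 and 873 CPM at the membrane, against 716 and 888 CPM in the cytosol, and in WT 839 and 1051 CPM, against 743 and 843 CPM. The fractions overlapped in both of those lines. In UFM1-KO all 8 subunits overlapped between the fractions, as did all 8 in WT and the other 7 in UFSP2-KO. Of all features, 59.2% did not overlap between the fractions in UFM1-KO, 64.9% in UFSP2-KO and 67.3% in WT. Without library b of UFSP2-KO cytosol the difference was 0.66 with an edgeR adjusted p of 0.0261, which would be called, and without library a it was 0.18 with an adjusted p of 0.615.

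Over all subunits and lines the log2 membrane over cytosol ran from -0.19 for TCP1 in UFM1-KO to the 0.44 of CCT2 in UFSP2-KO. The outermost 95% limits were -0.63, for TCP1 in UFM1-KO, and 0.87, for CCT2 in UFSP2-KO. For each subunit and line, differences between the fractions within its own interval remain possible. The values are relative to the features as a whole. Scaled by library size alone, the median of all features moved to -0.27 in UFM1-KO, -0.18 in UFSP2-KO and -0.16 in WT, and the medians of the subunits to -0.26, -0.06 and -0.07. The membrane-to-cytosol ratio itself was compared between lines as an interaction. It differed from WT for 0 of 8 subunits in UFM1-KO and 0 of 8 in UFSP2-KO, where 0.00904% of all features, 1 of 11065, were called in each. At an unadjusted p under 0.05 there were 0 subunits in either, and DESeq2 called 0. Over the 8 subunits UFM1-KO had a median change of the ratio of -0.14, within outermost 95% limits of -0.89 and 0.70. UFSP2-KO had a median of 0.04, within limits of -0.81 and 0.79.

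**Figure D3:**
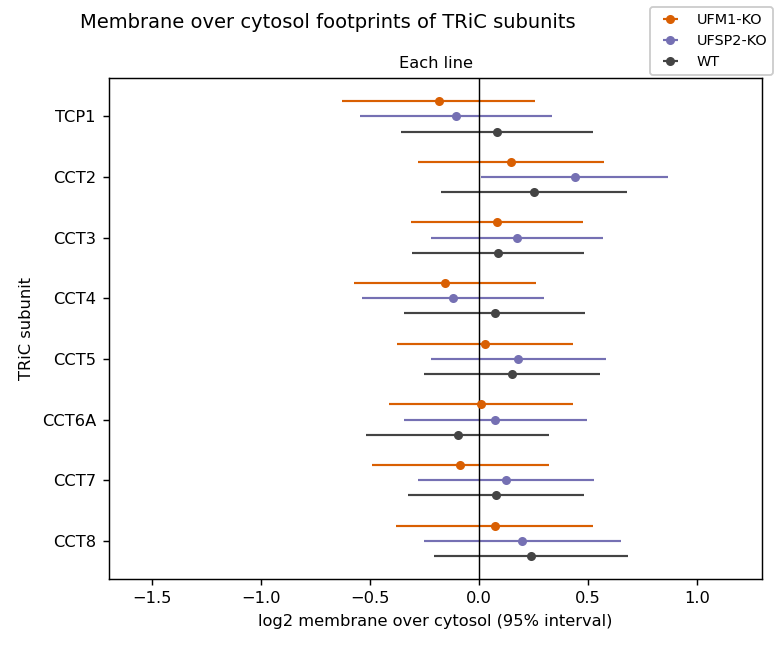
Log2 membrane over cytosol footprints of each subunit in the 3 lines, with 95% intervals from edgeR. All values lie between -0.19 and 0.44, and every interval but that of CCT2 in UFSP2-KO includes 0.

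The second comparison set each knockout against WT within a fraction. No subunit passed the test in any of these 4 comparisons. In the membrane fraction 0 of 8 were called in UFM1-KO, where 1.26% of all features were, and 0 of 8 in UFSP2-KO, where 11.1% were. In the cytosol 0 of 8 were called in UFM1-KO, beside 0.85% of all features, and 0 of 8 in UFSP2-KO, beside 3.99%. The median log2 change of the subunits was -0.22 in UFM1-KO membrane and 0.21 in UFSP2-KO membrane, beside medians over all features of 0.05 and 0.01. It was -0.06 in UFM1-KO cytosol and 0.20 in UFSP2-KO cytosol, beside 0.01 and 0.02. At an unadjusted p under 0.05 the counts were 1 of 8 and 2 of 8 in the membrane fraction and 1 of 8 and 3 of 8 in the cytosol, for UFM1-KO and UFSP2-KO in that order. Of all features, 11.2% of the membrane values passed that limit in UFM1-KO and 25.6% in UFSP2-KO, as did 11.4% and 19% of the cytosol values, shares near those of the subunits except for 3 of 8 in UFSP2-KO cytosol. DESeq2 called 0 subunits in all 4.

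CCT8, the theta subunit, was the one member whose knockout libraries all lay under both WT libraries, in both knockouts and both fractions, a placing found in 1.13% of all features. CCT8 had 552 and 502 CPM in UFM1-KO membrane and 554 and 595 CPM in UFSP2-KO membrane, against 773 and 986 CPM in WT membrane. Every knockout library lay under both WT libraries. In the cytosol it had 455 and 548 CPM in UFM1-KO and 436 and 563 CPM in UFSP2-KO, against 569 and 914 CPM in WT. Again no knockout library reached the lower WT library, although the WT libraries were themselves far apart and the gap to the lower one was small.

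The log2 change of CCT8 was -0.74 (SE 0.22, edgeR adjusted p = 0.103) in UFM1-KO membrane and -0.61 (SE 0.22, edgeR adjusted p = 0.0679) in UFSP2-KO membrane. In the cytosol it was -0.57 (SE 0.22, edgeR adjusted p = 0.291) in UFM1-KO and -0.57 (SE 0.22, edgeR adjusted p = 0.144) in UFSP2-KO. The unadjusted p-values of the edgeR test were 0.00221, 0.00905, 0.0151 and 0.0147 in that order, so CCT8 missed the threshold in each after adjustment. Both knockouts were set against the same WT libraries, and without WT library b of a fraction the 4 changes were -0.55, -0.42, -0.18 and -0.18. With WT library a left out instead they were -0.90, -0.78, -0.88 and -0.87, of which the value for UFSP2-KO cytosol would be called (edgeR adjusted p = 0.0254). Of 11 other settings tried for each, CCT8 was called in 5 for UFM1-KO membrane, 3 for UFSP2-KO membrane, 0 for UFM1-KO cytosol and 2 for UFSP2-KO cytosol. In mRNA CCT8 had 448 and 324 CPM in UFM1-KO and 323 and 452 CPM in UFSP2-KO, against 427 and 291 CPM in WT, and the groups overlapped.

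Relative to the other subunits of its own library, the place of CCT8 differed in the same way. Its log2 level against the geometric mean of the 8 was -0.44 in UFM1-KO membrane, -0.61 in UFSP2-KO membrane and 0.05 in WT membrane. In the cytosol it was -0.52, -0.69 and -0.11 in the same order of lines. CCT8 thus ranked 6 of 8 in UFM1-KO membrane, 8 of 8 in UFSP2-KO membrane and 5 of 8 in WT membrane. In mRNA the values were -0.66 in UFM1-KO, -0.93 in UFSP2-KO and -0.66 in WT. Relative to the complex, CCT8 was therefore near the mean in WT membrane footprints and near the bottom in WT mRNA, as in the levels plotted per library. The 2 WT cytosol libraries were unlike. In library a CCT8 had 1077 CPM per 1000 codons, where the geometric mean of the 8 was 1296. In library b it had 1732, where that mean was 1672.

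**Figure D4:**
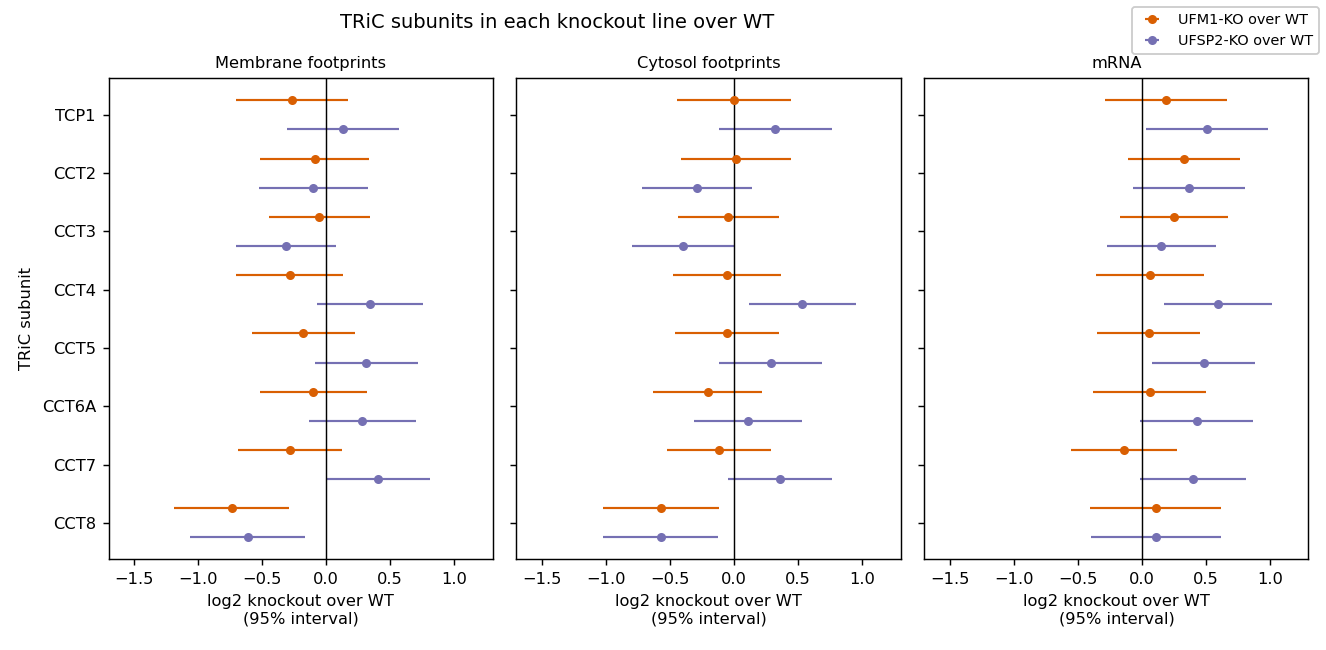
Log2 change of each subunit in UFM1-KO and UFSP2-KO over WT, with 95% intervals from edgeR, for membrane footprints, cytosol footprints and mRNA. CCT8 lies at -0.74 to -0.57 in the footprint panels and at 0.11 in mRNA, and CCT4 and CCT7 lie on opposite sides of 0 in the 2 knockouts at the membrane.

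The direct comparison of the knockouts was where subunits were called. At the membrane, CCT4 and CCT7 had fewer footprints in UFM1-KO than in UFSP2-KO, 2 of 8 subunits, where 21.4% of all features were called. That share of the members is close to the share of all features. CCT4, the delta subunit, had 607 and 544 CPM in UFM1-KO membrane, against 877 and 902 CPM in UFSP2-KO membrane. The libraries of the 2 lines did not overlap, and the log2 difference was -0.63 (SE 0.20, edgeR adjusted p = 0.0281). CCT7, the eta subunit, had 972 and 873 CPM in UFM1-KO membrane, against 1254 and 1726 CPM in UFSP2-KO membrane. Its libraries did not overlap either, although the UFSP2-KO libraries were wide apart, and the log2 difference was -0.69 (SE 0.20, edgeR adjusted p = 0.0131).

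The WT libraries lay between the knockouts for both genes, with 665 and 737 CPM for CCT4 and 1046 and 1200.1 CPM for CCT7. How many of all features have WT between the knockouts was not computed. Neither knockout was called against WT: the log2 difference of CCT4 from WT was -0.28 (SE 0.20, edgeR adjusted p = 0.673) in UFM1-KO and 0.34 (SE 0.20, edgeR adjusted p = 0.296) in UFSP2-KO. For CCT7 the values were -0.28 (SE 0.20, edgeR adjusted p = 0.662) in UFM1-KO and 0.41 (SE 0.20, edgeR adjusted p = 0.19) in UFSP2-KO. The calls changed when single libraries were left out. Without UFM1-KO membrane a, UFM1-KO membrane b or UFSP2-KO membrane b neither gene was called, and without UFSP2-KO membrane a CCT7 was called and CCT4 was not. The log2 difference of CCT4 stayed between -0.71 and -0.56 over these fits and that of CCT7 between -0.91 and -0.44.

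Other subunits sat at the same side without passing the test. CCT5, the epsilon subunit, in which a human mutation causes a sensory neuropathy, had 1045 and 909 CPM in UFM1-KO membrane, against 1299 and 1452 CPM in UFSP2-KO membrane, and a log2 difference of -0.49 (SE 0.20, edgeR adjusted p = 0.0725). The values were -0.40 for TCP1, -0.38 for CCT6A and -0.12 for CCT8, each with UFM1-KO libraries under UFSP2-KO libraries. For CCT8 the gap was small, with 552 CPM in UFM1-KO membrane a against 554 CPM in UFSP2-KO membrane a. The share of all features placed so was not computed at the membrane, so the placing cannot be called particular to these subunits. CCT3, the gamma subunit, was placed the other way, with 1205 and 1036 CPM in UFM1-KO and 869 and 1002 CPM in UFSP2-KO and a log2 difference of 0.26 (SE 0.19, edgeR adjusted p = 0.35). CCT2 had a log2 difference of 0.01 with a 95% interval of -0.42 to 0.43. Apart from CCT2, whose sign turned with the setting, 6 differences were negative and that of CCT3 was positive. These 7 kept their signs under all 11 other settings tried. Since the libraries of these 7 did not overlap between the knockouts, leaving out 1 library could hardly turn a sign.

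In the cytosol the placing of the knockouts was alike for CCT3, CCT4, CCT5, CCT6A and CCT7. TCP1 and CCT8, lower in UFM1-KO than in UFSP2-KO at the membrane, overlapped in the cytosol. For CCT4 and CCT7, UFM1-KO cytosol also overlapped WT cytosol. Between the knockouts edgeR called 0 of 8 subunits, beside 12% of all features. DESeq2 called 0 as well, and 2 had an unadjusted p under 0.05 in edgeR's test. CCT4 had 549.8 and 734 CPM in UFM1-KO cytosol, against 845 and 1084 CPM in UFSP2-KO cytosol and 566 and 765 CPM in WT cytosol. UFM1-KO lay under UFSP2-KO without overlap, and the log2 difference was -0.59 (SE 0.20, edgeR adjusted p = 0.0592). Without UFM1-KO cytosol b it was -0.85 and without UFSP2-KO cytosol a -0.77, and either would be called, with adjusted p-values of 0.0455 and 0.0344 in that order. CCT7 had 884 and 1074 CPM in UFM1-KO cytosol, against 1218 and 1514 CPM in UFSP2-KO cytosol and 982 and 1146 CPM in WT cytosol, with a log2 difference between the knockouts of -0.48 (SE 0.20, edgeR adjusted p = 0.115). CCT3 again was the other way, at 1082 and 1038 CPM in UFM1-KO and 719 and 936 CPM in UFSP2-KO, a log2 difference of 0.35 (SE 0.19, edgeR adjusted p = 0.252). Against WT, with 968 and 1216 CPM, UFSP2-KO cytosol had a log2 change of -0.40 (SE 0.19, edgeR adjusted p = 0.258) for CCT3 and 0.53 (SE 0.20, edgeR adjusted p = 0.144) for CCT4. With 2 libraries per group, 4 subunits had UFM1-KO cytosol libraries under and 1 had them above those of UFSP2-KO. The same placings were found in 24.7% and 25.3% of all features.

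The third comparison was of mRNA. No subunit passed the test: 0 of 8 in UFM1-KO against WT, beside 1.97% of all 13889 features, 0 of 8 in UFSP2-KO against WT, beside 7.19%, and 0 of 8 between the knockouts, beside 16%. Over WT, UFM1-KO had a median log2 change of 0.08 across the 8, beside -0.00638 for all features, and UFSP2-KO one of 0.41, beside -0.00887. UFM1-KO over UFSP2-KO had a median of -0.35, beside 0.01. At an unadjusted p under 0.05 there were 0, 3 and 3 subunits in that order, beside 16.2%, 24.7% and 31.2% of all features. DESeq2 called 0, 1 (CCT4) and 1 (CCT7), beside 547, 1442 and 2624 of the 13889 features.

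All 8 UFSP2-KO changes were positive, from 0.11 for CCT8 to 0.60 for CCT4, and for 6 subunits both UFSP2-KO libraries lay above both WT libraries, as they did for 24.6% of all features. CCT4 had 658 and 723 CPM in UFSP2-KO, against 518 and 395 CPM in WT, a log2 change of 0.60 (SE 0.20, edgeR adjusted p = 0.08). CCT5 had 1224 and 1127 CPM in UFSP2-KO, against 922 and 763 CPM in WT, a log2 change of 0.48 (SE 0.19, edgeR adjusted p = 0.134). TCP1 had 692 and 929 CPM in UFSP2-KO, against 669 and 470.4 CPM in WT, a log2 change of 0.51 (SE 0.23, edgeR adjusted p = 0.177). In each of the 3 the lower WT library was library b. Without WT mRNA library b the median change was 0.25 and 6 of 8 values were positive, and without WT mRNA library a it was 0.66 with all 8 positive. Scaled by library size alone the median was 0.28 and CCT8 alone turned negative, where the median of all features was -0.14.

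Between the knockouts, CCT4 mRNA was 495 and 457 CPM in UFM1-KO and 658 and 723 CPM in UFSP2-KO, a log2 difference of -0.54 (SE 0.20, edgeR adjusted p = 0.0777). CCT7 mRNA was 731 and 871 CPM in UFM1-KO and 1236 and 1096 CPM in UFSP2-KO, a log2 difference of -0.54 (SE 0.20, edgeR adjusted p = 0.0707). For both genes the libraries did not overlap, and the mRNA values stood at the same side as the footprints at the membrane. CCT5 and CCT6A mRNA was placed in the same way, with UFM1-KO libraries under UFSP2-KO libraries, and the other 4 subunits overlapped. The share of all features with this placing in mRNA was not computed, so it cannot be called particular to these genes. The log2 difference of CCT8 mRNA was -0.00478 with a 95% interval of -0.51 to 0.50.

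The 2 mRNA libraries of a line differed among the subunits in a shared pattern. The log2 ratio of library b to library a in UFM1-KO was -0.47 for CCT8, -0.34 for TCP1 and -0.24 for CCT6A, but 0.25 for CCT7 and 0.22 for CCT3. In UFSP2-KO it had the opposite signs, at 0.49 for CCT8, 0.43 for TCP1 and 0.24 for CCT6A, and -0.17 for CCT7 and -0.22 for CCT3. In WT all 8 ratios were negative, from -0.55 for CCT8 to -0.26 for CCT7. Over the 8 subunits, Pearson's r of these ratios was -0.989 between UFM1-KO and UFSP2-KO, -0.939 between UFSP2-KO and WT and 0.937 between UFM1-KO and WT, given as a description of 8 genes in shared libraries. The same quantity over all 13889 features was -0.364, -0.122 and 0.051. The spread between libraries a and b of CCT8 mRNA was thus larger than any mRNA difference of CCT8 between the lines.

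**Figure D5:**
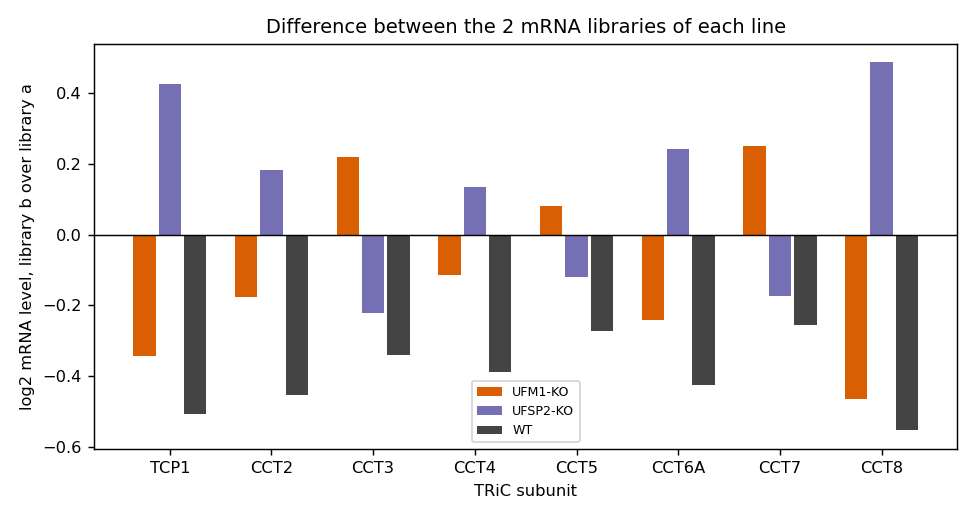
Log2 ratio of mRNA library b to mRNA library a for each subunit in UFM1-KO, UFSP2-KO and WT, on a linear axis. CCT8 and TCP1 have the most negative values in UFM1-KO and WT and the most positive in UFSP2-KO, and CCT3, CCT5 and CCT7 have the other sign from them in both knockouts.

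The last comparison took the footprint change less the mRNA change against WT, in a model over all 18 libraries. It asked whether the footprints of a fraction changed by another amount than whole-cell mRNA. The mRNA of each fraction was not measured, so a change of translation and a shift between fractions cannot be told apart. No subunit was called. At the membrane 0 of 8 were called in UFM1-KO, beside 0% of 12619 features, and 0 of 8 in UFSP2-KO, beside 0.0792%. In the cytosol 0 of 8 were called in UFM1-KO, beside 0%, and 0 of 8 in UFSP2-KO, beside 0.0158%. For UFM1-KO, where no feature was called at all, 540 features at the membrane and 752 in the cytosol had an unadjusted p under 0.05, and DESeq2 called 0 of the 8 subunits in each of the 4 comparisons. At an unadjusted p under 0.05 there was 1 subunit in each membrane comparison, CCT8, and 0 in each cytosol one. The median over the 8 was -0.38 in UFM1-KO membrane, -0.35 in UFSP2-KO membrane, -0.24 in UFM1-KO cytosol and -0.21 in UFSP2-KO cytosol, beside medians over all features of -0.00341, -0.06, -0.01 and 0.01. All 8 values were negative in both membrane comparisons and 7 of 8 in both cytosol ones, all against the same WT mRNA libraries. Scaled by library size alone the negative values were 8, 7, 5 and 6 of 8 in that order, where the median of all features was 0.11, 0.06, 0.20 and 0.11. Without WT mRNA library b the 4 medians were -0.20, -0.14, -0.02 and -0.03.

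CCT8 had the lowest value in each of the 4. At the membrane it was -0.89 (SE 0.34, edgeR adjusted p = 0.983) in UFM1-KO and -0.76 (SE 0.34, edgeR adjusted p = 0.524) in UFSP2-KO. In the cytosol it was -0.69 (SE 0.34, edgeR adjusted p = 0.828) in UFM1-KO and -0.63 (SE 0.34, edgeR adjusted p = 0.74) in UFSP2-KO. The 95% intervals were -1.59 to -0.20, -1.45 to -0.07, -1.38 to 0.01 and -1.33 to 0.06 in that order, so the membrane values excluded 0 before adjustment and the cytosol values did not. CCT2 came next in UFSP2-KO cytosol, at -0.60 (SE 0.30, edgeR adjusted p = 0.714). CCT7 was nearest to no difference in all 4, at -0.20 and -0.03 at the membrane and 0.01 and 0.01 in the cytosol, for UFM1-KO and UFSP2-KO in that order.

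The subunits did not all follow each other over the 12 footprint libraries. Pearson's r of a subunit's log2 CPM with the mean of the 8, itself included, was 0.883 for CCT5, 0.877 for CCT6A, 0.874 for TCP1, 0.815 for CCT7, 0.736 for CCT4, 0.632 for CCT8, 0.558 for CCT2 and 0.264 for CCT3. Among the 11057 features that are no member, 3 had an r above 0.9 with that mean. They were ENST00000305218 at 0.924, ENST00000303538 at 0.918 and ENST00000264108 at 0.902, whose log2 membrane over cytosol in WT lay between -0.02 and 0.00. The r values describe 12 libraries that share lines, fractions and depth.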

How the data were processed

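Ribosome footprints of 2 fractions and whole-cell mRNA were sequenced from UFM1-KO, UFSP2-KO and WT HEK293 cells, 2 libraries in each of 9 groups. The authors deposited raw counts per Ensembl transcript, whole numbers with a length in codons and no header. The submitters' processing notes name TopHat2 2.1.1 and the build GRCh38. The counting program and annotation were not given in the sources used here.

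Entries whose counts were the same throughout an assay were merged, which joined none of the 8 members with another entry, and mRNA was kept for the 25605 entries that match a footprint entry by ID and length. Counts were tested in R 4.3.3 with edgeR 4.0.16 (quasi-likelihood test, filterByExpr with a minimum count of 10, TMM, 1 coefficient per group) over 12 footprint libraries, 6 mRNA libraries or all 18. Features were called at a two-sided Benjamini-Hochberg adjusted p under 0.05 over all features of a comparison, and all 8 members passed the filter in each model. Standard errors come from the F statistic and 95% intervals from its degrees of freedom. The code was tested on simulated data. Alternatives were DESeq2 1.42.0, other scalings, no filter, no merging, a replicate block, fits of the compared groups alone and leaving out each library.

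The members and lists were chosen with earlier results of these data known, although the rule for the members names no measured value. All 8 members are named. Planned lists of cochaperones, other chaperonins, clients, fraction markers and the targeted genes were not used here, because nothing at hand pairs the transcript IDs with gene names.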

Additional observations from a re-analysis of the deposited data

Results flagged for a closer look

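CCT4 and CCT7 are listed because the knockouts differed in membrane footprints when tested directly. The log2 difference of UFM1-KO from UFSP2-KO was -0.63 for CCT4 (SE 0.20, edgeR adjusted p = 0.0281) and -0.69 for CCT7 (SE 0.20, edgeR adjusted p = 0.0131), and for both genes each of the 2 UFM1-KO libraries was lower than each of the 2 UFSP2-KO libraries. The same 2 genes are also listed because the libraries of the knockouts lay on opposite sides of both WT libraries. How many of all features are placed in this way was not computed, so the placing cannot be called particular to these genes. Against WT membrane, UFM1-KO had a log2 change of -0.28 for CCT4 and UFSP2-KO one of 0.34. For CCT7, UFM1-KO had -0.28 and UFSP2-KO had 0.41. These 4 changes against WT were tested and 0 of them were called. CCT4 and CCT7 mRNA was also lower in UFM1-KO than in UFSP2-KO, by -0.54 for each on the log2 scale, without passing the test (edgeR adjusted p = 0.0777 for CCT4 and 0.0707 for CCT7). The part of mRNA in the footprint difference between the knockouts was not tested.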

How the results depend on the processing

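Of 1856 changes of single subunits recomputed under other settings, 1812 kept their side of the threshold, 37 came to pass it, 7 no longer did and 0 called changes reversed, while the sign of values near 0 could turn. Nearly all of the 1856 concern changes that were not called in the text. The only 2 called were those of CCT4 and CCT7 in UFM1-KO against UFSP2-KO membrane, and all 7 losses are theirs. Each subunit had at least 468 counts in every library, and each group had 2 libraries. The number of subunits called changed as follows, beside 0 in the text unless stated. UFM1-KO membrane against cytosol gave 2 (TCP1 and CCT4) by library size alone. UFSP2-KO membrane against cytosol gave 1 (CCT2) with RLE size factors and 0 to 1 with a library left out. UFM1-KO membrane against WT gave 1 (CCT8) with RLE size factors, with library size alone, without the filter and with the compared groups alone. UFSP2-KO membrane against WT gave 1 (CCT8) by library size alone and 2 (CCT7 and CCT8) with the compared groups alone. UFM1-KO against UFSP2-KO membrane, 2 in the text, gave 3 with RLE size factors and without merging (CCT5 added in each), 5 with the compared groups alone and 0 to 1 with a library left out. UFSP2-KO cytosol against WT gave 0 to 1 with a library left out. UFM1-KO against UFSP2-KO cytosol gave 1 with RLE size factors, without the filter, without merging (CCT4 in each) and by library size alone (CCT3), and 0 to 1 with a library left out. DESeq2 gave 1 in UFSP2-KO mRNA against WT (CCT4) and 1 in UFM1-KO against UFSP2-KO mRNA (CCT7). The causes were not tested.

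The letters a and b are shared by all groups and nothing says that they mark a pairing. Correlations of same-lettered deviations over all features were 0.032 to 0.221 for footprints and -0.364 to 0.051 for mRNA. With the letter as a replicate block the counts were 1 for UFSP2-KO membrane against cytosol (CCT2), also with a block within each line, 1 for UFM1-KO membrane against WT (CCT8), 1 for UFSP2-KO membrane against WT (CCT8), 3 for UFM1-KO against UFSP2-KO membrane (CCT4, CCT5 and CCT7), 2 for UFSP2-KO cytosol against WT (CCT4 and CCT8) and 2 for UFM1-KO against UFSP2-KO cytosol (CCT4 with an edgeR adjusted p of 0.0103 and CCT7 with one of 0.0274), and other counts stayed at 0. With the letters of UFSP2-KO mRNA crossed in the replicate block, a setting chosen after seeing the data, the counts were 1 for UFSP2-KO mRNA against WT and 2 for UFM1-KO against UFSP2-KO mRNA.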
